A study of Solanum lycopersicum x Solanum pennellii and Solanum lycopersicum with 17 samples.

Results

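Carpels of the tomato introgression line IL-1_1 were compared with carpels of the introgression line IL-2_3. The means compared came from 8 of the 17 arrays of the series, 4 for each line, taken by the line named in the sample titles. The spread behind the tests came from all 17. All 10101 probe sets that are not array controls were tested. The other arrays were 6 of the parental cultivar M82, which the titles call a seed control, and 3 of the line IL-1_4. The labels give M82 as Solanum lycopersicum and the lines as Solanum lycopersicum x Solanum pennellii. All groups were carpels taken 7 days after pollination from greenhouse plants that the labels describe as treated equally, with 1 sample of biotin-labelled total RNA on each Affymetrix tomato array. An introgression line carries a segment of a wild tomato chromosome, here from Solanum pennellii, in the M82 background. The number after IL names the chromosome of the segment, so IL-1_1 carries a segment of chromosome 1 and IL-2_3 one of chromosome 2. The design text names a comparison of each line with the control, not of the lines with each other. It calls the lines hybrids, and the sources used here do not give whether the sampled plants carried 1 or 2 copies of a segment. The labels do not say whether each replicate was a plant of its own. The p-values therefore reflect the spread among arrays of a group, and that spread may be technical.

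The carpel wall becomes the fruit wall after fertilisation, and in the first days of growth the ovary divides its cells before it expands them. Each line is bred to differ from M82 in a single segment. A direct comparison of 2 lines takes in differences that come with either segment, in genes that lie in it or in genes elsewhere that follow it. Any other difference between the sampled carpels or the arrays enters the comparison too, and these sources were not separated. The chromosomal positions of the probe sets were not used here, so genes inside and outside the segments could not be told apart.

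The 8 arrays had medians between 10.01 and 10.03 on the deposited log2 scale. Arrays of IL-1_1 correlated with each other at 0.958 to 0.989, those of IL-2_3 at 0.973 to 0.992, and arrays of different lines at 0.932 to 0.977. The median SD of a probe set was 0.221 in IL-1_1 and 0.184 in IL-2_3. Arrays within a line also differed: along the main direction of variation within M82 and IL-1_4, IL-2_3 replicate 4 scored 36.6 while the other IL-2_3 arrays scored -1.61 to -0.624, and the IL-1_1 arrays scored 12.2 to 62.2, with replicate 1 the highest and no gap as wide as that in IL-2_3. IL-2_3 replicate 4 thus stood apart from the rest of its line. The 3-prime minus 5-prime difference of 6 tomato control transcripts, a sign of RNA integrity, had medians of 0.207 to 0.324 in IL-1_1 and 0.208 to 0.304 in IL-2_3. Of the 5 carpel and young fruit markers, fsm1 (a gene of early fruit growth), TAGL1 and TDR6 (MADS-box genes of the flower and fruit) lay between 10.17 and 13.08 in all 8 arrays. The MADS-box gene TDR4 lay between 9.04 and 11.12, and TDR8 between 5.36 and 9.12, with means of 8.35 in IL-1_1 and 6.34 in IL-2_3. The mean of the 5 was 10.36 to 11.33 over IL-1_1 arrays and 10.01 to 10.43 over IL-2_3 arrays. The style gene Stig1 lay between 3.67 and 4.61, near the lowest value of any array, 3.31. Of the 5 pollen markers, PRK1, PRK2, PRK3 and Shy lay between 3.82 and 4.79, while LAT61 lay between 12.21 and 12.74. The mean of the 5 pollen markers was 5.74 to 5.95 over IL-1_1 arrays and 5.84 to 6.02 over IL-2_3 arrays, and that of the 7 photosynthesis probe sets was 11.29 to 12.64 and 11.34 to 12.73. The part of these markers in the differences below was not tested.

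IL-1_1 and IL-2_3 differed at 492 of the 10101 probe sets (4.87%), of which 236 (2.34%) were higher and 256 (2.53%) were lower in IL-1_1. A probe set counts as called, here and throughout, at an adjusted p of 0.05 in limma's moderated test over all probe sets, and a change is the log2 level in IL-1_1 minus that in IL-2_3, so that a positive value means a higher level in IL-1_1. The median size of a called change was 0.917. Changes beyond 2-fold numbered 224, beyond 4-fold 86 (46 higher and 40 lower in IL-1_1) and beyond 16-fold 25 (14 higher and 11 lower). In all 25 of the last, the mean of the lower line lay below 7.93, under which the dimmest 25% of probe sets fall. The arrays of the lines did not overlap at 457 of the 492 called probe sets (4.52% of those tested), and they did not overlap at 1112 probe sets (11% of those tested), called or not.

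**Figure D1:**
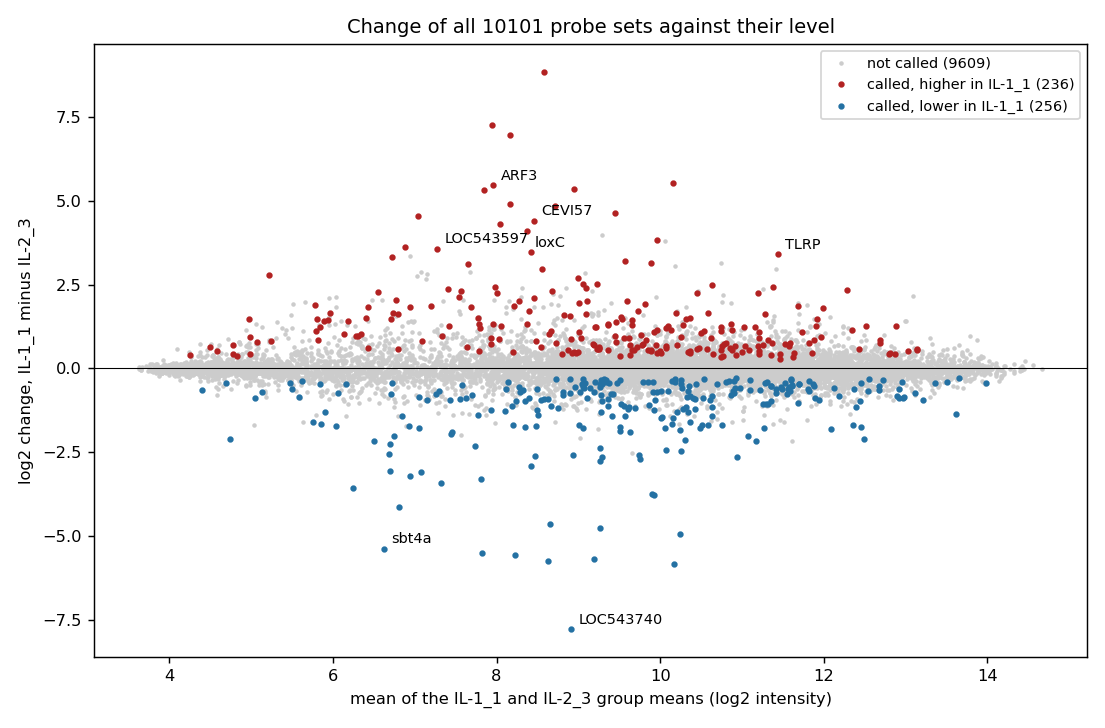
Log2 change of each probe set, IL-1_1 minus IL-2_3 (vertical axis), against the mean of the group means of the lines in log2 intensity (horizontal axis), 4 arrays per line. Red points are the 236 called higher and blue points the 256 called lower in IL-1_1, grey points were not called, and the genes with a symbol that changed by more than 3 log2 units are labelled, from LOC543740 at -7.77 to ARF3 at 5.47.

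The number of calls rested on single arrays. It was 834 without IL-2_3 replicate 4 (442 higher, 392 lower) and 787 without M82 replicate 1, which enters only through the spread that all groups share. It was 316 without IL-1_1 replicate 4, 310 without IL-2_3 replicate 1 and 299 without IL-2_3 replicate 2, and 239 when only the 8 arrays of the lines were fitted. Of the 492 calls, 210 were made in each of the 27 alternatives that held the probe set (98 higher and 112 lower in IL-1_1), and these took in 72 of the 86 beyond 4-fold.

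**Figure D2:**
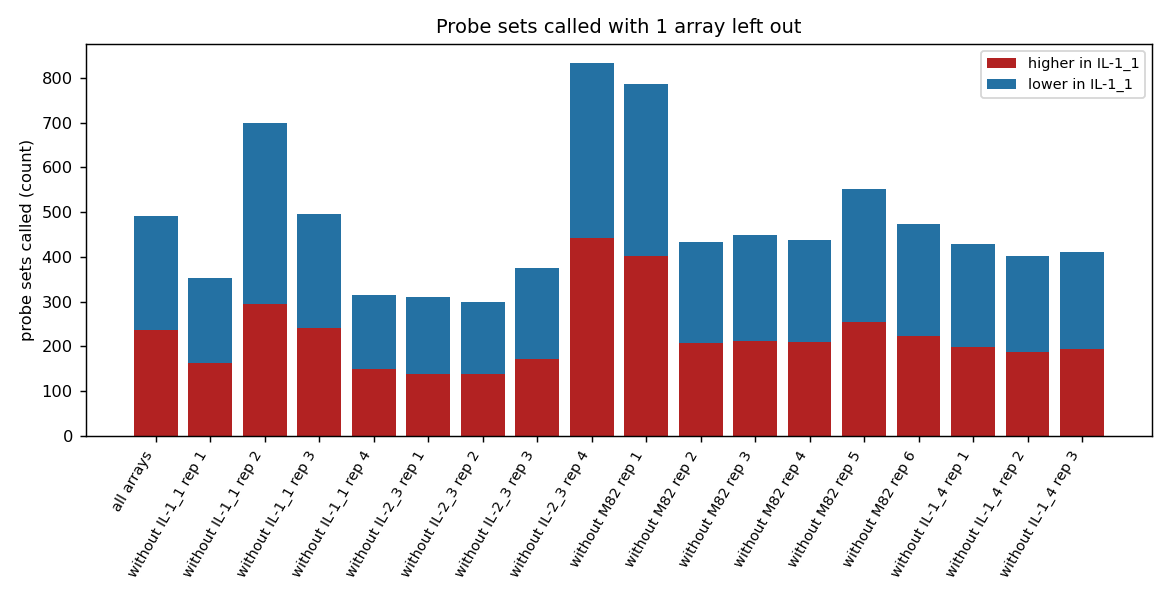
Number of probe sets called between IL-1_1 and IL-2_3 (vertical axis, count) with all 17 arrays and with each array left out in turn (horizontal axis). Red parts of the bars are higher and blue parts lower in IL-1_1; the total ranges from 299 without IL-2_3 replicate 2 to 834 without IL-2_3 replicate 4.

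The M82 arrays place each line beside the parental level, but they spread widely themselves. Along the direction of variation within M82 and IL-1_4, which was made from these arrays, they scored -27.5 to 53.0, with replicate 1 the highest. The part of that spread in the counts below was not tested. The M82 mean lay nearer to IL-2_3 than to IL-1_1 at 391 of the 492 called probe sets (79.5%) and at 76.2% of all probe sets tested. Among the 86 changes beyond 4-fold it lay nearer to IL-2_3 at 55 and nearer to IL-1_1 at 31. At 61 of these 86 the line farther from M82 was the lower of the lines, which was IL-1_1 at 35 and IL-2_3 at 26, and at 25 it was the higher, which was IL-1_1 at 20 and IL-2_3 at 5. Over all probe sets tested, the line farther from M82 was the lower one at 5337 of 10101. Each line against M82, which shares the line's arrays with the comparison of the lines, had 1233 calls for IL-1_1 (12.2%) and 91 for IL-2_3 (0.901%).

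Annotation was thin. Of the tested probe sets 909 had a gene symbol in the platform annotation, and 53 of these were called (5.83%), 30 higher and 23 lower in IL-1_1. The genes described next are the 12 largest called changes in each direction among named genes, taken where no IL-1_1 array fell within the range of the IL-2_3 arrays or the reverse. They fall into genes for which IL-1_1 was called against M82, genes for which IL-2_3 was, and genes for which neither line was. In the last set the M82 mean lay between the lines, but this also held for some of the other genes. It held at 300 of the 492 called probe sets and at 3439 of the 10101 tested.

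**Figure D3:**
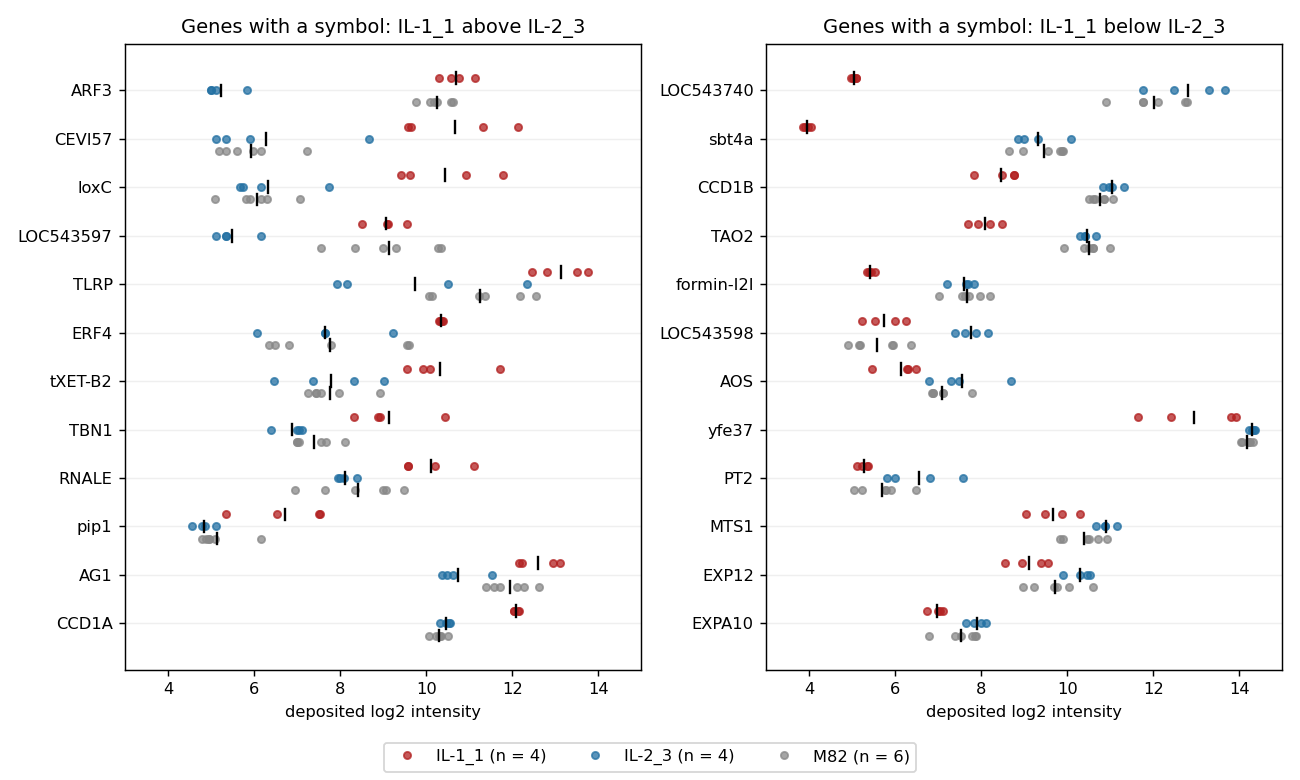
Deposited log2 intensity (horizontal axis) of the 12 genes with the largest difference in each direction (rows), with a point for each array of IL-1_1 (red, n = 4), IL-2_3 (blue, n = 4) and M82 (grey, n = 6) and a black bar at each group mean. IL-2_3 stands alone for ARF3 and LOC543597, IL-1_1 stands alone for LOC543740 and sbt4a, and M82 lies between the lines for AG1 and MTS1.

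loxC and CEVI57 were high in IL-1_1 and near the M82 level in IL-2_3. The lipoxygenase gene loxC, whose enzyme starts the making of fruit volatiles from fatty acids, had levels of 9.41, 10.92, 11.78 and 9.62 in the IL-1_1 arrays and 6.17, 5.73, 7.73 and 5.66 in the IL-2_3 arrays. The 6 M82 arrays had a lowest value of 5.08, a median of 6.03 and a highest value of 7.07. All IL-1_1 arrays lay above all arrays of the other groups just named, and the change was 4.11 ± 0.54 (SE; limma adjusted p = 0.000167, unadjusted 95% interval 2.95 to 5.27). CEVI57, known as a gene induced by a viroid in tomato, had levels of 9.57, 12.13, 11.32 and 9.64 in IL-1_1 and 5.34, 5.12, 5.91 and 8.68 in IL-2_3, and its median in M82 was 5.79. The highest IL-2_3 value was that of replicate 4, an array that stood apart, and the change was 4.40 ± 0.72 (limma adjusted p = 0.00135). Without that array it was 5.21, and the call was kept in the 26 alternatives that held the probe set, as was that of loxC.

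The nuclease genes TBN1 and RNALE were higher in IL-1_1 too. TBN1, which codes for a bifunctional nuclease that cuts both RNA and DNA, had levels of 10.45, 8.92, 8.87 and 8.32 in IL-1_1 and 7.05, 6.99, 7.10 and 6.39 in IL-2_3, a change of 2.25 ± 0.39 (limma adjusted p = 0.0021). A dimmer probe set of the same gene gave 0.88 ± 0.29 (adjusted p = 0.0928) and was not called, though it was without IL-1_1 replicate 3 (1.11, adjusted p = 0.0335). A covariate made from the residuals within groups also gave a call (0.0256), but by its construction it shrinks the spread and so is no support. The change of the dimmer probe set was 0.47 without IL-1_1 replicate 1, whose level there, 6.40, was the highest. RNALE, the gene of the extracellular ribonuclease RNase LE, had levels of 11.11, 9.58, 10.21 and 9.57 in IL-1_1 and 8.10, 7.98, 8.38 and 7.95 in IL-2_3, with M82 between 6.95 and 9.49. The IL-1_1 arrays were the highest of the 3 groups throughout, and the change was 2.01 ± 0.46 (limma adjusted p = 0.0188). That call was lost without IL-1_1 replicate 1 (1.68, adjusted p = 0.063), IL-2_3 replicate 1 (0.0508) or IL-2_3 replicate 2 (0.0573). The gene listed as pip1 differed by 1.89 ± 0.40 (limma adjusted p = 0.0114), with IL-1_1 between 5.34 and 7.52 and IL-2_3 between 4.55 and 5.12. It was in none of the gene lists used below, those of proteases, transport and defence among them.

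In xyloglucan remodelling, which loosens and rejoins a wall polymer that binds cellulose, tXET-B2 and XTH3 were higher in IL-1_1. The xyloglucan endotransglycosylase gene tXET-B2 had levels of 11.71, 9.93, 9.56 and 10.08 in IL-1_1 and 9.01, 8.32, 6.46 and 7.36 in IL-2_3, a change of 2.53 ± 0.55 (limma adjusted p = 0.0128). XTH3 had 11.04, 10.22, 8.87 and 11.07 in IL-1_1 and 9.12, 9.31, 6.57 and 6.58 in IL-2_3, and the lines overlapped, since the lowest IL-1_1 array was below the 2 highest of IL-2_3. Its change was 2.41 ± 0.64 (limma adjusted p = 0.0429). Among the 13 probe sets of the xyloglucan list these 2 were called higher, against 2.34% of all probe sets tested, and 0 were called lower. A positive change was seen at 11 of 13, against 47.2% of all probe sets, and the median was 0.52, against -0.02. With the score along the direction of variation within M82 and IL-1_4 as a covariate, 8 were positive and the median was 0.65. BR1 gave 1.89 ± 0.57 (adjusted p = 0.0698) and was not called. The XTH3 call was lost in 15 of 27 alternatives, among them without each of IL-1_1 replicates 1, 2 and 4, IL-2_3 replicates 3 and 4, M82 replicates 2, 3 and 4 and every IL-1_4 array (adjusted p = 0.0526 to 0.138).

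The paralogous carotenoid cleavage dioxygenase genes CCD1A and CCD1B, whose enzymes cut carotenoids to volatile apocarotenoids, differed in opposite directions. CCD1A had levels of 12.13, 12.04, 12.15 and 12.05 in IL-1_1 and 10.54, 10.46, 10.53 and 10.33 in IL-2_3, a change of 1.63 ± 0.09 (limma adjusted p = 4.21e-09). CCD1B had 8.47, 8.75, 7.83 and 8.76 in IL-1_1 and 11.03, 10.82, 11.31 and 10.97 in IL-2_3, a change of -2.58 ± 0.18 (limma adjusted p = 7.88e-08). For both genes IL-2_3 and M82 overlapped, the M82 ranges being 10.06 to 10.50 and 10.51 to 11.05. These genes gave the only calls among the 18 probe sets of the carotenoid and plastid isoprenoid list, against 4.87% called over all probe sets. The other 16 probe sets of the list had changes of -0.38 (DXR) to 0.32 (a probe set of Psy1).

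Among genes lower in IL-1_1, LOC543740 and sbt4a had the largest falls. LOC543740 lay between 4.96 and 5.09 in IL-1_1 against levels of 12.48, 13.67, 11.75 and 13.29 in IL-2_3 and a median of 11.94 in M82, a change of -7.77 ± 0.41 (limma adjusted p = 2.44e-09). This was the largest fall of any probe set tested. The subtilisin-like protease gene sbt4a had 3.96, 3.88, 4.05 and 3.85 in IL-1_1 and 8.86, 8.98, 10.09 and 9.31 in IL-2_3, a change of -5.38 ± 0.29 (limma adjusted p = 3.09e-09). The IL-1_1 levels of sbt4a lay near the lowest value of any array, 3.31, which limits how well the size of its change is known. The part of sequence differences between the parents in that low signal was not tested. The sbt4a call was the single one among the 12 probe sets of the protease list, against 4.87% called over all probe sets. In that list sbt3 gave -0.33 ± 0.18 (adjusted p = 0.279), SBT1 0.18 and SBT2 -0.23, the last pair with adjusted p of 0.841 and 0.541.

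TAO2, an aldehyde oxidase gene, had levels of 8.20, 7.93, 7.70 and 8.49 in IL-1_1 and 10.41, 10.67, 10.29 and 10.41 in IL-2_3, a change of -2.37 ± 0.19 (limma adjusted p = 4.47e-07). It was the single call among the 4 probe sets of the aldehyde oxidase list, against 4.87% called over all probe sets. The other 3 genes of the list were not called: AO1 gave 0.26, FLACCA, which codes for an enzyme of the molybdenum cofactor that aldehyde oxidases need, gave 0.14, and TAO3 gave 0.019. The gene formin-I2I, of the formin family that nucleates actin filaments, differed by -2.17 ± 0.20 (limma adjusted p = 2.1e-06), with IL-1_1 between 5.33 and 5.53 and IL-2_3 between 7.21 and 7.82. The IL-1_1 arrays of TAO2 and formin-I2I lay below every IL-2_3 and M82 array. The gene yfe37 had levels of 11.63, 13.92, 13.81 and 12.40 in IL-1_1 and lay between 14.22 and 14.35 in IL-2_3, a change of -1.36 ± 0.36 (limma adjusted p = 0.0394). IL-1_1 replicates 1 and 4 were the lowest arrays: without replicate 1 the change was -0.93 (adjusted p = 0.0649) and without replicate 4 -1.18 (0.137). It was also lost without IL-2_3 replicates 1, 2 or 3, M82 replicates 2, 3, 4 or 6 or any IL-1_4 array (adjusted p = 0.0502 to 0.109).

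For ARF3, LOC543597 and LOC543598, IL-2_3 was the line away from M82. ARF3 is an auxin response factor gene, a class of transcription factors that bind auxin-responsive promoters. Its probe set Les.2313.1.A1_at had levels of 10.76, 10.59, 10.30 and 11.13 in IL-1_1 and 5.84, 4.99, 5.10 and 4.99 in IL-2_3, and M82 had a lowest value of 9.76, a median of 10.21 and a highest value of 10.62. The IL-2_3 arrays lay far below all others, with a change between the lines of 5.47 ± 0.23 (limma adjusted p = 1.21e-10). The other ARF3 probe set, Les.2313.2.A1_at, had levels of 9.58, 9.65, 9.14 and 9.83 in IL-1_1 and 9.67, 9.57, 9.69 and 9.18 in IL-2_3 and gave 0.027 ± 0.21 (adjusted p = 0.944, interval -0.41 to 0.47). The probe sets of this gene thus disagreed, and ARF3 as a gene cannot be said to differ from this array alone.

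LOC543597 had levels of 9.54, 9.10, 8.51 and 9.09 in IL-1_1 and 5.10, 6.17, 5.35 and 5.34 in IL-2_3, a change of 3.57 ± 0.50 (limma adjusted p = 0.000323), and lay between 7.56 and 10.34 in M82. LOC543598 had 5.52, 5.98, 5.21 and 6.24 in IL-1_1 and 7.63, 8.15, 7.88 and 7.40 in IL-2_3, a change of -2.03 ± 0.30 (limma adjusted p = 0.000516), with M82 between 4.90 and 6.35. Against M82, IL-2_3 was lower in the former by 3.64 on the log2 scale, and in the latter it was higher, at 2.19 ± 0.27 (adjusted p = 0.000224). The annotation gives no description of either gene. Also low in IL-2_3 was RPB2, the gene of a large subunit of RNA polymerase II, which was picked outside the rule after its values were seen. It averaged 11.89 ± 0.14 (SD, n = 4) in IL-1_1, 11.15 ± 0.24 in IL-2_3 and 11.84 ± 0.17 (n = 6) in M82, a change of 0.73 ± 0.13 (limma adjusted p = 0.00222).

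For a further set neither line was called against M82, and the M82 mean lay between the lines. AG1 is tomato's AGAMOUS gene, a MADS-box gene that specifies stamens and carpels. Its levels were 13.10, 12.22, 12.16 and 12.94 in IL-1_1 and 10.37, 10.62, 10.48 and 11.52 in IL-2_3, with M82 between 11.40 and 12.63, and the change was 1.86 ± 0.30 (limma adjusted p = 0.00116). IL-1_1 differed from M82 by 0.65 ± 0.27 (adjusted p = 0.114) and IL-2_3 by -1.21 ± 0.27 (adjusted p = 0.0533), neither of which was called. TLRP, the gene of a wall protein rich in tyrosine and lysine, had 13.77, 12.47, 12.80 and 13.50 in IL-1_1 and 8.15, 7.93, 10.52 and 12.35 in IL-2_3, a change of 3.40 ± 0.81 (limma adjusted p = 0.0242). The IL-2_3 arrays spread over more than 4 log2 units, with replicate 4 the highest, and the call was lost without IL-1_1 replicate 1 or 4 or IL-2_3 replicate 1 or 2 (adjusted p = 0.0714, 0.0722, 0.0886 and 0.0935).

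Of the expansin genes, whose proteins loosen growing walls, EXP12 and EXPA10 were lower in IL-1_1. EXP12 had levels of 9.37, 8.94, 9.54 and 8.55 in IL-1_1 and 10.46, 10.53, 9.89 and 10.30 in IL-2_3, a change of -1.19 ± 0.31 (limma adjusted p = 0.035). EXPA10 had 7.02, 7.10, 6.74 and 6.99 in IL-1_1 and 7.84, 8.11, 7.99 and 7.64 in IL-2_3, a change of -0.93 ± 0.20 (limma adjusted p = 0.0121). Of the 13 expansin probe sets these 2 were called lower and 0 higher, and 2 had a positive change, against 2.53% called lower and 47.2% positive over all probe sets. The median was -0.33, and -0.56 without IL-2_3 replicate 4. The arrays of the lines did not overlap at 4 of the 13, against 11% of all probe sets. EXP1, an expansin gene best known from ripening fruit, gave -0.76 ± 0.23 (adjusted p = 0.0662) and was not called. The EXPA10 call was kept in the 26 alternatives that held it, whereas EXP12 was lost without IL-1_1 replicates 1, 2 or 4 or IL-2_3 replicates 1 or 2 (adjusted p = 0.0502 to 0.125).

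The monoterpene synthase gene MTS1 had levels of 9.48, 10.29, 9.88 and 9.03 in IL-1_1 and 10.88, 11.15, 10.65 and 10.86 in IL-2_3, a change of -1.21 ± 0.27 (limma adjusted p = 0.0142). M82 averaged 10.39 and the third line, IL-1_4, 5.11. The call was lost without IL-1_1 replicate 4 (adjusted p = 0.0518) or IL-2_3 replicate 2 (0.0548). The phosphate transporter gene PT2 had 5.12, 5.33, 5.22 and 5.37 in IL-1_1 and 7.58, 6.81, 5.99 and 5.80 in IL-2_3, a change of -1.29 ± 0.34 (limma adjusted p = 0.0444). This was the single call among 15 transport and nitrogen probe sets, against 4.87% called over all probe sets. The PT2 call was lost in 15 of 26 alternatives, which included leaving out any IL-1_1 array, IL-2_3 replicate 1 (-0.94) or 2, M82 replicates 2, 3 or 4 or any IL-1_4 array (adjusted p = 0.0544 to 0.141).

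Within oxylipin synthesis, loxC and AOS differed in opposite directions. AOS codes for allene oxide synthase, which leads fatty acid hydroperoxides toward jasmonate. It had levels of 6.27, 6.49, 6.29 and 5.46 in IL-1_1 and 6.78, 7.29, 7.48 and 8.69 in IL-2_3, a change of -1.43 ± 0.34 (limma adjusted p = 0.0227), lost without IL-1_1 replicate 4 (adjusted p = 0.0858). Of the 16 probe sets of jasmonate, oxylipin and wound genes these 2 were called and 5 changes were above 0, against 4.87% called and 47.2% positive over all probe sets, and the median was -0.23. AOC, the allene oxide cyclase gene that acts after AOS, gave -0.79 ± 0.23 (adjusted p = 0.0641), and the 3 probe sets of the arginase gene ARG2 gave -2.09, -1.65 and -1.12 (adjusted p = 0.0856, 0.0955 and 0.195), none of them called.

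Other large differences were in probe sets without a symbol, and the line that was low depended on the direction. Probe set Les.2294.2.A1_a_at lay between 12.65 and 13.34 in IL-1_1 and between 3.97 and 4.40 in IL-2_3, a change of 8.84 ± 0.22 (limma adjusted p = 1.52e-13). Les.4345.4.A1_at and Les.4345.4.A1_x_at, which by their IDs share a transcript cluster, gave 7.27 ± 0.47 and 6.96 ± 0.41 (limma adjusted p = 3.17e-08 and 8.29e-09). Next came Les.181.1.A1_at at 5.54 ± 0.19 and Les.4705.1.S1_at at 5.35 ± 0.47. For these 5, the IL-1_1 arrays lay within or near the M82 range and IL-2_3 was low.

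In the opposite direction IL-1_1 was the low line. Les.3091.1.A1_at had levels of 6.84, 7.16, 7.43 and 7.59 in IL-1_1 and 13.07, 13.15, 12.96 and 13.19 in IL-2_3, a change of -5.84 ± 0.13 (limma adjusted p = 3.35e-14). Les.745.1.A1_at, Les.4203.1.A1_at, LesAffx.67882.1.S1_at and Les.2320.1.A1_at gave -5.74 ± 0.12, -5.67 ± 0.25, -5.57 ± 0.19 and -5.51 ± 0.14. In these 5 the IL-2_3 mean minus the M82 mean ranged from -0.14 to 0.11, and all 10 calls were kept in the 27 alternatives.

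At 5 of the 86 changes beyond 4-fold IL-2_3 was the higher line and the one farther from M82. These were LOC543598 and 4 probe sets without a symbol, which were picked outside the rule after their values were seen, 3 of them of cluster Les.218. Les.218.1.S1_at had levels of 7.97, 7.63, 7.89 and 8.67 in IL-1_1 and 11.82, 11.87, 11.82 and 11.71 in IL-2_3, with M82 between 5.74 and 7.99. The changes between the lines were -3.77 ± 0.40, -4.76 ± 0.23 and -4.94 ± 0.29 (limma adjusted p = 1.29e-05, 9.36e-10 and 7.89e-09). Against M82, IL-2_3 was higher by 4.75 ± 0.36 (adjusted p = 4.93e-07), 5.71 ± 0.21 (adjusted p = 5.8e-11) and 5.98 ± 0.26 (adjusted p = 3.44e-10), and the 3 probe sets belong to 1 cluster by their IDs, so they are no independent evidence. The fourth, Les.5697.1.S1_at, had levels of 7.96, 7.86, 8.11 and 7.96 in IL-1_1 and 10.64, 10.68, 10.65 and 10.47 in IL-2_3, with M82 between 7.65 and 8.18, a change of -2.64 ± 0.13 (limma adjusted p = 8.64e-10).

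**Figure D4:**
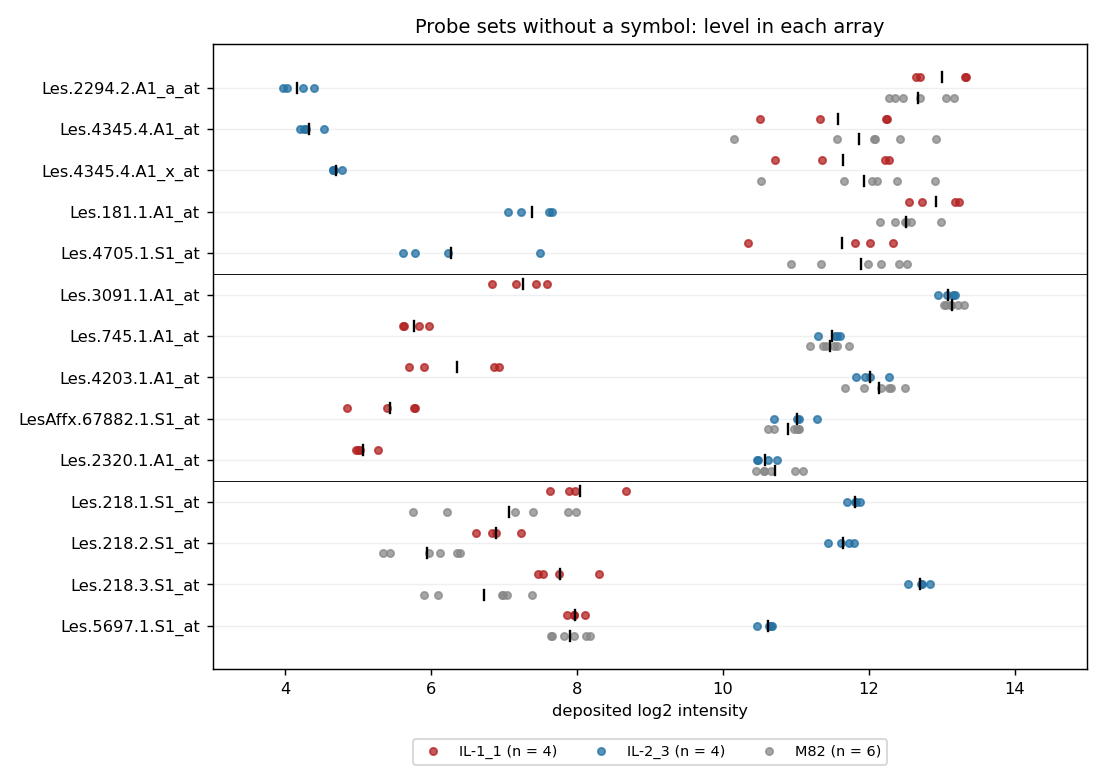
Deposited log2 intensity (horizontal axis) of the 5 largest rises, the 5 largest falls and the 4 with IL-2_3 high and away from M82, among probe sets without a symbol (rows, parted by lines), with a point for each array of IL-1_1 (red, n = 4), IL-2_3 (blue, n = 4) and M82 (grey, n = 6) and a black bar at each mean. IL-2_3 is low in the top block, IL-1_1 is low in the middle block, and IL-2_3 is high in the bottom block.

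Across the auxin, gibberellin, ethylene and abscisic acid lists, of 14, 8, 48 and 9 probe sets, 3 probe sets were called. Over all probe sets tested 4.87% were called. Of 14 auxin probe sets 2 were called higher, against 2.34% of all probe sets, the discordant ARF3 probe set and IAA7, a gene of the Aux/IAA repressors of auxin response, which differed by 0.91 ± 0.21 (limma adjusted p = 0.0192). IAA7 had 8.23, 8.54, 7.99 and 8.77 in IL-1_1 and 7.50, 6.83, 8.05 and 7.50 in IL-2_3, so the lines overlapped, and the call was lost without IL-1_1 replicate 4 (adjusted p = 0.0726) or IL-2_3 replicate 2 (0.0548). A further IAA7 probe set gave 0.23 (adjusted p = 0.15). The other auxin probe sets, with a median over the list of 0.07, were not called.

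Ethylene genes were mostly on the positive side, with 1 call among 48 probe sets, against 4.87% called over all probe sets. ERF4, a transcription factor gene of the ethylene response, had levels of 10.39, 10.36, 10.29 and 10.33 in IL-1_1, a narrow range, and 7.64, 6.07, 7.63 and 9.23 in IL-2_3, a change of 2.70 ± 0.74 (limma adjusted p = 0.0491). In M82 its levels ran from 6.34 to 9.61, with a median of 7.29. Of the 48 ethylene probe sets 38 had a positive change (79.2%, against 47.2% of all probe sets), and the median was 0.24. With the score along the direction of variation within M82 and IL-1_4 as a covariate, 30 were positive and the median was 0.04, and without IL-1_1 replicate 1 the median was 0.11. With the score covariate the ERF4 change was 1.73 (adjusted p = 0.054). The ERF4 call was also lost without any IL-1_1 array, IL-2_3 replicates 1, 2 or 3, M82 replicates 3 or 4 or any IL-1_4 array (adjusted p = 0.0557 to 0.178). The largest changes in the list were not called: 3 probe sets of ACO6, a gene of the oxidase that makes ethylene, gave 3.13 ± 1.07, 3.79 ± 1.18 and 3.98 ± 1.26 (adjusted p = 0.106, 0.0808 and 0.0849). PTI6 and PTI4, related factor genes, gave 1.20 ± 0.35 and 2.31 ± 0.74 (adjusted p = 0.0619 and 0.0859). Neither was called, though both were without IL-2_3 replicate 4 (adjusted p = 0.0184 and 0.048) and without M82 replicate 1 (0.0263 and 0.0452).

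Gibberellin genes (8 probe sets) and genes of abscisic acid and water stress (9) had 0 calls, with medians of 0.03 and 0.49. The latter was 0.12 without IL-1_1 replicate 1 and also with the score covariate, and 0.78 without IL-2_3 replicate 4. Among the genes of abscisic acid and water stress, JA2, a NAC transcription factor gene, gave 1.65 ± 0.68 (adjusted p = 0.168, unadjusted interval 0.20 to 3.10) and the dehydrin gene TAS14 1.11 ± 0.60 (adjusted p = 0.274, interval -0.16 to 2.38). The changes moved with single arrays: JA2 gave 1.06 without IL-2_3 replicate 2, and TAS14 gave 0.68 without IL-2_3 replicate 2 and 1.68 without IL-2_3 replicate 1.

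The defence, heat shock and antioxidant lists, which hold none of CEVI57, MAPKKKalpha and pip1, had 0 calls at this number of arrays, against 4.87% called over all probe sets. The 19 pathogenesis-related and defence probe sets, of which PTI6 and PTI4, given above, had the smallest p, had 15 positive changes and a median of 0.67. That median was 0.10 without IL-1_1 replicate 1 and 0.27 with the score covariate, so 1 array decided much of that median. The 6 heat shock probe sets had a median of 0.00, and HSP21, a small heat shock protein gene, gave -1.04 ± 0.35 (adjusted p = 0.102), called without IL-2_3 replicate 4 (-1.30, adjusted p = 0.0338) or M82 replicate 1 (0.0351). Among 18 antioxidant probe sets, with a median of -0.11 (-0.19 without IL-2_3 replicate 4), the smallest p was that of a GPXle-2 probe set, a glutathione peroxidase gene, at -0.31 ± 0.09 (adjusted p = 0.0662). It was called without IL-1_1 replicate 2 (0.0249) or IL-2_3 replicate 4 (0.0451).

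Sugar and starch genes held 2 calls of 26, both higher in IL-1_1, against 2.34% of all probe sets. The median of the list was -0.09, and -0.20 without IL-2_3 replicate 4. BMY3, a beta-amylase gene of starch breakdown, had values between 12.46 and 12.88 in IL-1_1 and between 10.29 and 11.82 in IL-2_3, a change of 1.48 ± 0.38 (limma adjusted p = 0.0347). The other 2 BMY3 probe sets gave 1.23 and 1.02 (adjusted p = 0.081 and 0.103), neither of them called. HT3, a hexose transporter gene, differed by 0.46 ± 0.12 (limma adjusted p = 0.0363), with IL-1_1 between 9.07 and 9.31 and IL-2_3 between 8.61 and 8.98. The BMY3 call was lost without IL-1_1 replicates 1, 2 or 4 or IL-2_3 replicates 1 or 2 (adjusted p = 0.057 to 0.131), and that of HT3 without IL-1_1 replicates 1, 2 or 4 or IL-2_3 replicates 1, 3 or 4 (0.056 to 0.118). The 26 other cell wall probe sets, a list that does not hold the called wall protein gene TLRP, had 0 calls. Their median was -0.08 (-0.13 without IL-2_3 replicate 4), and TBG3, a beta-galactosidase gene, gave 1.15 ± 0.33 (adjusted p = 0.0565). TBG3 was called without IL-1_1 replicate 2 (0.0421), IL-2_3 replicate 4 (0.0142) or M82 replicate 1 (0.0475).

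Genes of organ identity and growth other than AG1, which the lists do not hold, had 0 calls, against 4.87% called over all probe sets. The MADS-box gene TDR8 gave 2.01 ± 0.78 (adjusted p = 0.149) and was called without M82 replicate 1 (0.0407), and TAGL1, another AGAMOUS-like gene, gave -0.21 ± 0.092 (adjusted p = 0.2, interval -0.40 to -0.0091). The median over 8 MADS-box and floral identity probe sets was 0.03, and that over 9 meristem and organ shape probe sets 0.07. In the latter fsm1 had 12.64, 12.38, 12.42 and 13.04 in IL-1_1 and 11.43, 11.39, 10.17 and 11.56 in IL-2_3. These did not overlap, but M82 ran from 8.64 to 12.73, and the change of 1.48 ± 0.65 was not called (adjusted p = 0.191). Cell cycle genes had 10 of 15 changes below 0 and a median of -0.10, with the B-type cyclin gene CycB2 at -1.23 ± 0.45 (adjusted p = 0.124) and the replication clamp gene PCNA at -0.57 ± 0.19 (adjusted p = 0.102). CycB2 was called without IL-1_1 replicate 2 (-1.64, adjusted p = 0.0277).

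The remaining lists also had 0 calls, apart from MTS1 among 5 terpene and aroma probe sets, against 4.87% called over all probe sets. Medians were -0.03 for photosynthesis (7 probe sets), 0.11 for light signalling (16), 0.00 for small GTPases (9), -0.15 for 14-3-3 proteins (7), -0.12 for ribosomal proteins (6), -0.18 for phenylpropanoid genes (4) and 0.06 for ripe fruit markers (7). The photosynthesis median was 0.39, with all 7 positive, under the score covariate, and -0.26 without IL-2_3 replicate 4.

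**Figure D5:**
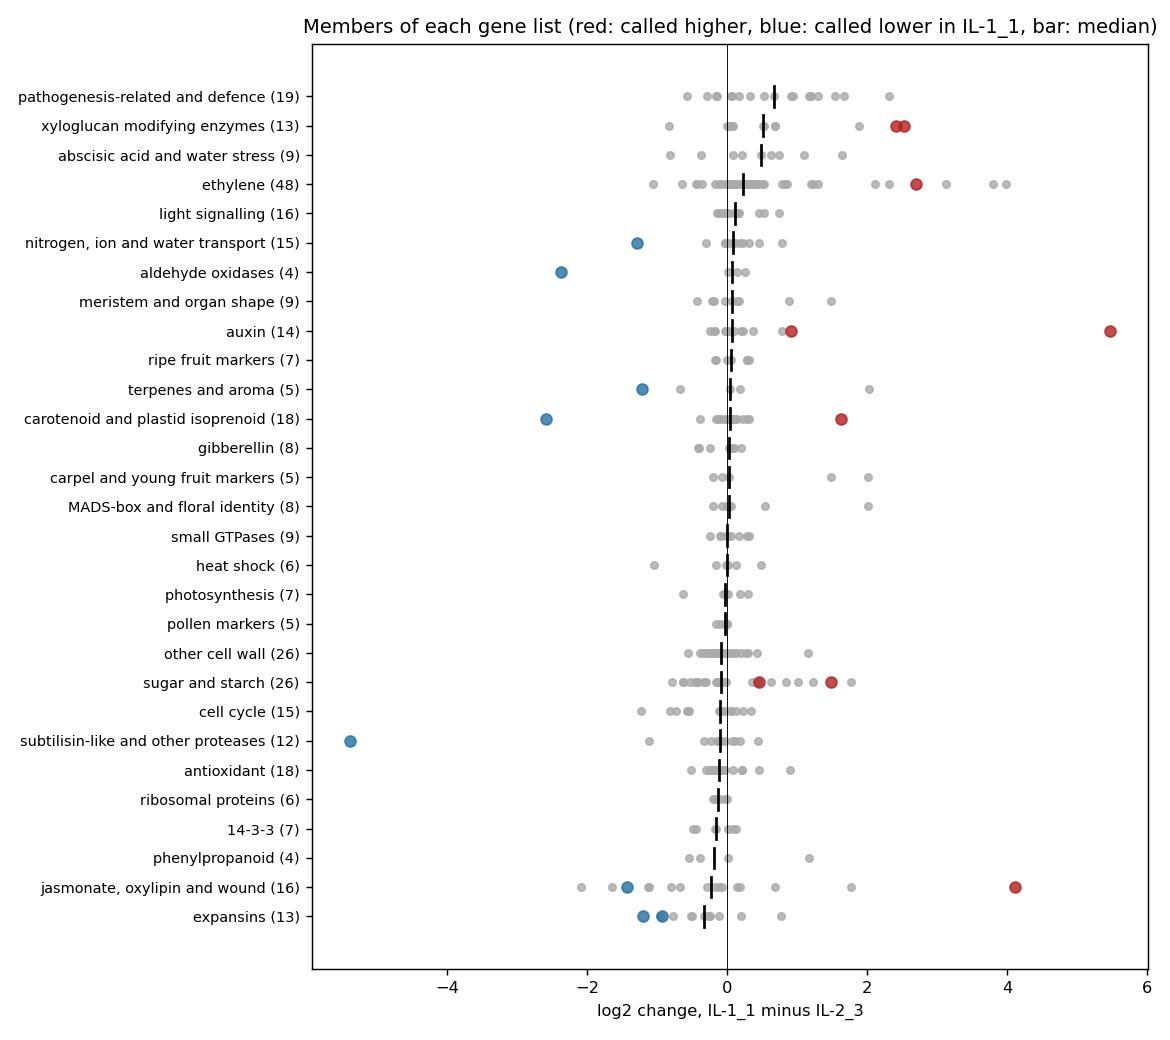
Log2 change, IL-1_1 minus IL-2_3 (horizontal axis), of each probe set of the gene lists (rows, with the number of probe sets, ordered by median; a list of 1 probe set is left out). Red points were called higher and blue points lower in IL-1_1, grey points were not called, and black bars are medians, from -0.33 for expansins to 0.67 for pathogenesis-related and defence genes.

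Smaller called changes with a symbol include regulators, named here after their values were seen. MAPKKKalpha, a protein kinase gene of defence-linked cell death, averaged 10.38 ± 0.17 (SD, n = 4) in IL-1_1 and 9.76 ± 0.14 in IL-2_3, a change of 0.61 ± 0.13 (limma adjusted p = 0.0106). The gene GBF12, a G-box binding factor gene by its symbol, differed by 0.95 ± 0.21 (limma adjusted p = 0.0126). PP2Ac2, of the catalytic subunit of protein phosphatase 2A, averaged 10.61 ± 0.24 and 11.20 ± 0.10, a change of -0.59 ± 0.10 (limma adjusted p = 0.00209). In these 3 the M82 means of 9.69, 9.89 and 11.24 were close to those of IL-2_3.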

How the data were processed

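Total RNA of whole carpels was labelled with biotin and hybridised to single-colour Affymetrix tomato arrays, 1 sample per array. The deposited values are log2 intensities, which the authors normalised with affy per the submitters' processing notes. For the affy version and the normalisation used, the answer is not given in the sources used here. Values run from 3.31 to 14.75, from which base 2 was taken. The table held 10209 probe sets, of which 108 controls were left out. Signal was not rescaled, and the number of arrays limits the precision.

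A model of group means over all 17 arrays was fitted with limma 3.58.1 in R 4.3.3, with empirical Bayes moderation and Benjamini-Hochberg adjustment over 10101 probe sets. The SE and the 95% intervals of a change come from that fit. The fit was tested on simulated data drawn with independent noise for each probe set. That test does not cover variation shared among probe sets, so it lends the number of calls here no support. Gene symbols came from the platform annotation, 909 probe sets with 802 symbols, 207 of them LOC numbers, and different probe sets of a gene were kept apart. The text names the 12 largest called, non-overlapping changes with a symbol in each direction, the 5 largest without one, up to 4 called members of each list, and the 2 with the smallest p where a list had no call. The 30 lists were matched by symbol, and 25 matches were removed by role. The comparison, members and lists were chosen with earlier results of these data known. The array probes were designed on cultivated tomato, and the part of sequence differences between the parents in low signals was not tested.

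Alternatives were the 8 arrays alone, median centring, quantile normalization, no dim probe sets, moderation with trend, a replicate block, covariates for variation within groups, and leaving out arrays. The main fit did not pair samples by replicate number. The titles name no shared plant or day, and 4 pairs are too few to tell whether the numbers pair the samples.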

Additional observations from a re-analysis of the deposited data

Results flagged for a closer look

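Among 237 groups of 4 or 6 arrays tested, 14 had 1 array far from the others relative to the range of its group, and chance alone marks about 1 group in 20. In IL-1_1, replicate 4 was high for Les.2320.1.A1_at (5.27, nearest 5.02), replicate 3 was low for TDR8 (6.69, nearest 8.75) and high for TBG3 (11.44, nearest 10.29), and replicate 1 was low for PsbQ (12.53, nearest 13.19). In IL-2_3, replicate 1 was high for ARF3 probe set Les.2313.1.A1_at (5.84, nearest 5.10), and replicate 3 was low for fsm1 (10.17, nearest 11.39). Replicate 2 of that line was high for CycB2 (9.13, nearest 8.33) and RAN2A (13.35, nearest 13.25). Its replicate 4 was low for TBN1 (6.39, nearest 6.99) and GPXle-2 (13.83, nearest 13.97). In M82, replicate 1 was high for pip1 (6.15, nearest 5.08) and AOS (7.77, nearest 7.10) and low for tft8 (12.06, nearest 12.66), and replicate 5 was high for GAI (10.48, nearest 9.42).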

How the results depend on the processing

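The 492 calls (236 higher, 256 lower in IL-1_1) were 239 (118 and 121) in a fit of the 8 arrays alone, with 225 shared, which leaves fewer arrays for the spread. A covariate made from the residuals within groups gave 2625 (1284 and 1341); by its construction it changes the spread and not the changes. Without IL-2_3 replicate 4, M82 replicate 1 and replicate 1 of IL-1_1 together, chosen after seeing the data, 873 were called (473 and 400), with 426 shared. The cause was not tested. Leaving out 1 array at a time gave 299 to 834 calls, 138 to 442 higher and 160 to 403 lower. Same-numbered arrays of the lines correlated at -0.174, 0.254, 0.164 and 0.154, and 2 of 4 matched their own number best. With the number as a replicate block, 563 were called (249 and 314), 423 of them shared. Centring, quantile normalization, the filter on dim probe sets and moderation with trend gave 413 to 518 calls, and a covariate projected from M82 and IL-1_4, chosen after seeing the data, gave 512. For the named probe sets no alternative reversed a called direction. The 8-array fit ended 12 calls of named probe sets: TLRP (adjusted p = 0.12), ERF4 (0.0529), tXET-B2 (0.0964), pip1 (0.0881), AOS (0.124), yfe37 (0.19), PT2 (0.123), MTS1 (0.0582), IAA7 (0.134), XTH3 (0.165), BMY3 (0.0578) and HT3 (0.0844). The projected covariate ended those of TLRP (0.0535), ERF4 (0.054), yfe37 (0.096), PT2 (0.1), EXP12 (0.0866), XTH3 (0.076), BMY3 (0.0555) and HT3 (0.0615). The block ended those of AOS (0.0709), yfe37 (0.0576), PT2 (0.058), IAA7 (0.0527) and HT3 (0.0793), and CycB2 was called under it (0.0413). Moderation with trend ended that of HT3 (0.0537), and GPXle-2 was called under it (0.0411). Without M82 replicate 5 and IL-1_4 replicate 1, the 2 arrays with the highest 3-prime minus 5-prime differences, 475 were called. That ended the calls of ERF4 (0.0537), yfe37 (0.063) and XTH3 (0.0645). Low signals near 3.31 bound how large a fall can be measured, and the part of sequence differences between the parents in them was not tested.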
